A study of Homo sapiens with 23 samples.

Results

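Expression of 9 genes of the urea cycle and of glutamine synthesis was examined in the mRNA-seq tables of the integrated gut-liver-on-a-chip (iGLC), a microfluidic platform that holds gut and liver cells in chambers joined by flow. The genes were selected by symbol, and each of them had exactly 1 row among the 60564 rows of every table. They were NAGS, CPS1, SLC25A15, OTC, ASS1, ASL, ARG1, ARG2 and GLUL. The platform was used to model fatty liver disease through exposure of both cell types to free fatty acids (FFAs). Caco-2, a human colorectal carcinoma line used as gut cells, gave 11 libraries, and HepG2, a human hepatoblastoma line used as liver cells, gave 12. Each line was mono-cultured or co-cultured with the other line and received 1 mM FFAs (palmitic and oleic acid, 1 to 2) or no FFAs (control) for 1 day. There were 3 libraries per group, except for co-cultured control Caco-2 cells, with 2. The labels give 0.5% serum in the medium of all groups during treatment, whereas the study's methods describe serum-free medium with albumin. Both are tumour-derived lines, and the study states that the mRNA-seq was repeated in independent experiments. The labels do not say which libraries share an experiment or chip, so p-values measure the spread between these libraries, part of which may be technical.

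The urea cycle turns ammonia, which is toxic, into urea, and in the body the complete cycle runs in hepatocytes. It starts in mitochondria, where ammonia and bicarbonate enter the cycle and citrulline is made, and ends in the cytosol, where arginine is split into urea and ornithine. Hepatocytes around the central vein largely lack the cycle and capture the remaining ammonia as glutamine instead. Enterocytes have part of the cycle and use it to make citrulline and arginine from glutamine.

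The genes lie on different chromosomes of GRCh38 (gene bounds from GENCODE v44), and all are protein-coding. NAGS (chr17:44004622-44009068) makes N-acetylglutamate, the obligate activator of CPS1. CPS1 (chr2:210477682-210679107) encodes the mitochondrial carbamoyl phosphate synthetase, and OTC (chrX:38352586-38421446) the transcarbamylase that joins carbamoyl phosphate to ornithine. SLC25A15 (chr13:40789412-40812460) exchanges ornithine and citrulline across the inner mitochondrial membrane. In the cytosol, ASS1 (chr9:130444961-130501274) makes argininosuccinate and ASL (chr7:66075800-66094697) cleaves it to arginine. ARG1 (chr6:131470832-131584332), the cytosolic arginase of liver, and ARG2 (chr14:67619920-67651708), the mitochondrial arginase of other tissues, release urea. GLUL (chr1:182378098-182392206, minus strand) is glutamine synthetase.

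The promoters of these genes differed in the number of CG dinucleotides. RefSeq start sites (GRCh38.p14) gave 13 windows of 300 bases for the 9 genes, most of each lying before the start. The windows of OTC (3 CG), ARG1 (1) and CPS1 (between 1 and 3 in 3 windows) held few, NAGS held 15, and the windows of ASS1, ASL, ARG2, GLUL and SLC25A15 held between 25 and 45, against a median of 14 over 35116 windows. The letters TATAAA, read on either strand, were in the windows of OTC and ARG1 and in 11.5% of all windows. The 100 bases before a RefSeq start are shown for the 2 genes with the lowest expression in these libraries (OTC, ARG1). They are also shown for 2 of the 3 with the highest (ASL, GLUL), with CG in capitals.
OTC, chrX:38352504-38352603, plus strand: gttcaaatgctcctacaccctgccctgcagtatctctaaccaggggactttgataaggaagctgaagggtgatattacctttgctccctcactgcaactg
ARG1, chr6:131573126-131573225, plus strand: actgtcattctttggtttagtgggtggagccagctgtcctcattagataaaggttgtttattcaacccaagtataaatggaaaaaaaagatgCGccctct
ASL, chr7:66075719-66075818, plus strand: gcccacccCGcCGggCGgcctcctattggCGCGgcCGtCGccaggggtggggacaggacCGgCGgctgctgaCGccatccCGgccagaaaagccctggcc
GLUL, chr1:182391791-182391890, minus strand: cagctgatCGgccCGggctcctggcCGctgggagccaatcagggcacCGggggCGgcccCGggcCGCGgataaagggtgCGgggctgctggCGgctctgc
These stretches held 0 CG for OTC, 1 for ARG1, 11 for ASL and 10 for GLUL. For ARG1 and GLUL the stretch lies inside the GENCODE gene bounds given above, which reach further upstream than the RefSeq start used. A further window of GLUL, with 25 CG, is not shown. The letters describe the windows only, and binding at them was not measured here.

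Expression is given in TPM (the share of each transcript in its library, corrected for transcript length), so levels of different genes can be set side by side. The tables hold no read counts, so the depth of each library is unknown and values carry no error for counting. Libraries had from 19259 to 23689 genes above 0 TPM. The lines matched their labels: CDX2, an intestinal transcription factor, was between 60.4 and 136 TPM in Caco-2 cells and at most 0.73 in HepG2 cells, and TF (transferrin) was between 5680 and 9359 TPM in HepG2 cells. Caco-2 cells also expressed hepatocyte markers, with a sum of 10 markers between 2153 and 4366 TPM against 38459 to 60101 in HepG2 cells, and the sum of 10 intestinal markers was between 914 and 1301 TPM in Caco-2 cells against 155 to 245 in HepG2 cells, most of the latter from VIL1. The intestinal markers CDX1, KRT20 and GPA33 were low in both lines. Of the hepatocyte markers, HPX went the other way, with a median of 20.1 TPM in Caco-2 cells and 12.9 TPM in HepG2 cells. ALB was the largest part of the hepatocyte sum in HepG2 cells (mean 28679 TPM). In 2 co-cultured Caco-2 libraries, replicate 1 of control and replicate 1 of FFAs, TF was 42.8 and 133 TPM and SPP1, another gene of HepG2 cells, 19.6 and 39.6, against at most 10.24 and 1.040 in the other 9 Caco-2 libraries. In HepG2 cells the libraries numbered 3 also stood apart for OTC, ARG2 and NAGS, and results are given with and without them. In bulk libraries a change in the share of a cell type and a change in RNA per cell cannot be told apart. The levels of all 9 genes by library are shown in the plot of TPM.

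**Figure D1:**
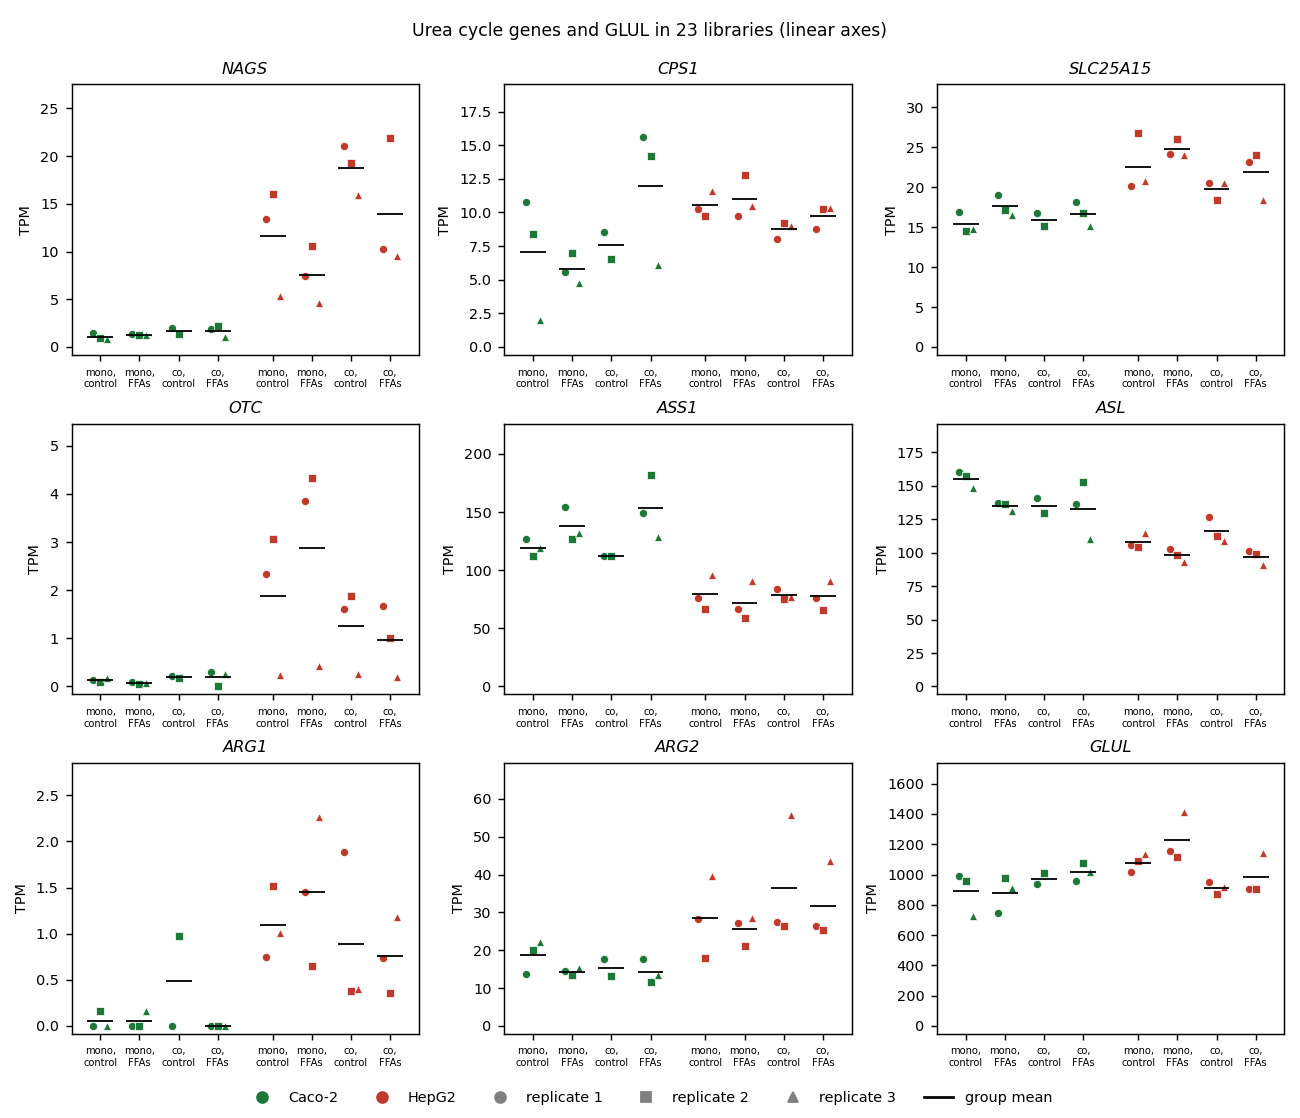
TPM of each gene (y axis, linear, 1 panel per gene) in the 8 groups (x axis), with 1 symbol per library, its shape giving the replicate number, and a line at the group mean. NAGS lies at or below 2.16 TPM in all Caco-2 libraries and at or above 4.58 in all HepG2 libraries, and OTC in HepG2 cells is lowest in replicate 3 of each group.

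The first comparison was between the lines, as the mean over the 4 conditions. NAGS had the largest difference on the log2(TPM + 1) scale, toward HepG2 cells. The cytosolic arginine-making pair ASS1 and ASL was expressed more in Caco-2 cells, while GLUL was among the most abundant mRNAs of both lines. Of the 9 genes, 6 were higher in HepG2 cells (NAGS, OTC, ARG2, ARG1, SLC25A15, GLUL), 2 were lower (ASS1, ASL), and CPS1 did not pass the test (limma on log2(TPM + 1), adjusted p under 0.05 over 16495 genes). Genes entered the test if their mean reached 1 TPM in any group. OTC and ARG1 did so only through HepG2 groups, with Caco-2 group means of at most 0.19 and 0.485 TPM. Their calls are therefore not independent of the filter. With no filter their adjusted p in limma were 0.00139 and 0.000188. The lines differ widely, since 29.2% of all genes tested were called higher and 49.8% lower, so a call alone says little about these genes. The median difference over all genes was −0.24 on this scale, and −0.05 after median-of-ratios scaling, under which 6089 genes were called higher and 6729 lower instead of 4814 and 8216. With that scaling the same 6 genes were higher and the same 2 lower, and CPS1 was also called. Only NAGS and ASS1 did not overlap between the 11 Caco-2 and the 12 HepG2 libraries, a separation seen for 42.7% of all genes tested.

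**Figure D2:**
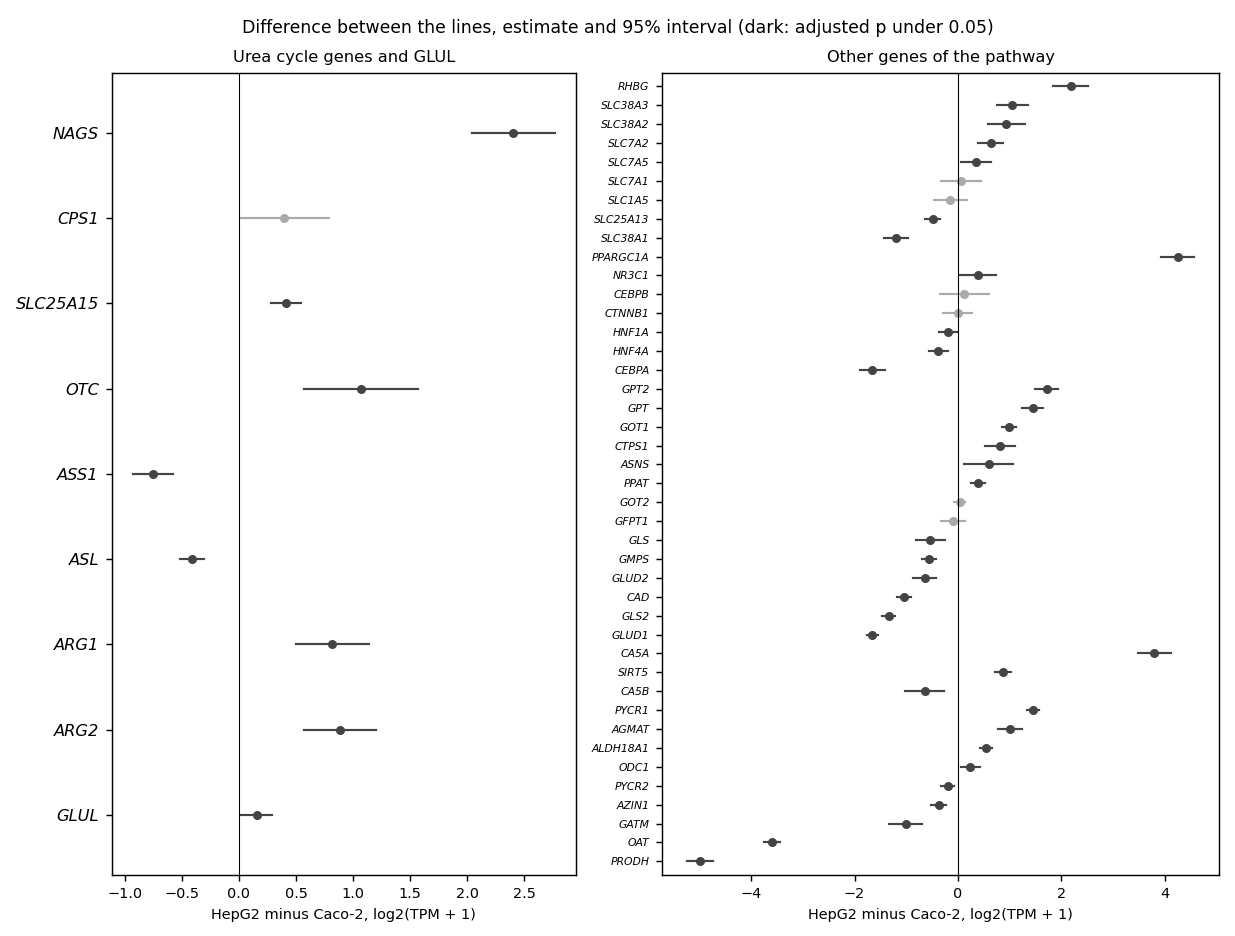
Difference between the lines (x axis, HepG2 minus Caco-2, log2(TPM + 1), mean of the 4 conditions) with its 95% interval for the 9 genes (left) and 42 other genes of the pathway (right), dark where the adjusted p is under 0.05. NAGS stands at 2.41 and ASS1 at −0.76, and the other genes reach from PRODH at −4.99 to PPARGC1A at 4.25.

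NAGS had the largest difference of the 9 genes on the log2(TPM + 1) scale. By the ratio of mean TPM, OTC differed more (1.74 TPM in HepG2 against 0.144 in Caco-2 cells) than NAGS (12.9 against 1.41), at levels near 0 in Caco-2 cells. The level of NAGS in Caco-2 cells was between 0.89 and 2.16 TPM (median 1.32, n = 11), and in HepG2 cells between 4.58 and 21.9 TPM (median 11.97, n = 12). The difference was 2.41 on the log2(TPM + 1) scale (SE 0.17, adjusted p = 1.16e-10), which is 5.30-fold and understates the change of a gene this low in one line. Every HepG2 library was above every Caco-2 library. In the order of group means, co-cultured control HepG2 cells came first (18.7 ± 2.61 TPM, SD, n = 3) and mono-cultured control Caco-2 cells last (1.10 ± 0.341, n = 3), and neighbouring groups overlapped in 5 of 7 pairs.

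CPS1, whose product N-acetylglutamate activates, did not pass the threshold between the lines. It was between 2.00 and 15.6 TPM in Caco-2 cells (median 6.97) and between 8.06 and 12.8 TPM in HepG2 cells (median 9.99). The difference of 0.40 (SE 0.19) had an adjusted p of 0.0582 and a 95% interval from 0.01 to 0.79. The Caco-2 libraries enclosed the whole range of the HepG2 libraries, and neighbours overlapped in all 7 pairs. The highest level of CPS1 in any library, 15.6 TPM, was in co-cultured FFAs-treated Caco-2 replicate 1, one of the libraries with raised TF and SPP1, and it exceeded every HepG2 library. The call depended on single libraries: without Caco-2 replicate 1 or 2 of the mono-cultured control, or replicate 1 or 2 of the co-cultured FFAs group, the adjusted p was between 0.0144 and 0.0464, and without replicate 3 of the mono-cultured control the difference was 0.25. It was also called with median-of-ratios scaling (0.60, adjusted p = 0.00648) and with quantile normalization (0.71, adjusted p = 0.0019).

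OTC and ARG1 were the 2 least expressed of the 9 genes in both lines. OTC in Caco-2 cells was between 0 and 0.30 TPM (listed at 0 in 1 of 11 libraries), and in HepG2 cells between 0.19 and 4.33 TPM (median 1.64). The difference was 1.07 (SE 0.24, adjusted p = 0.000404), a compressed value because 1 TPM is added before the logarithm. With 0.1 TPM added, the difference was 2.44. HepG2 replicate 3 of each group, between 0.19 and 0.42 TPM, lay within or just above the Caco-2 range, and the other 8 HepG2 libraries lay above it.

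SLC25A15, the ornithine carrier, differed little but evenly. It was between 14.5 and 19.0 TPM in Caco-2 cells and between 18.4 and 26.7 TPM in HepG2 cells. The difference was 0.41 (SE 0.06, adjusted p = 8.49e-06), or 1.33-fold, with overlap between the lines, and 0.63 after median-of-ratios scaling.

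ASS1 and ASL, the genes of arginine synthesis, were the 2 lower in HepG2 cells. ASS1 was between 112 and 182 TPM in Caco-2 cells (median 127) and between 58.7 and 96.0 TPM in HepG2 cells (median 75.7), without overlap. The difference of −0.76 (SE 0.08, adjusted p = 7.31e-08) is 1.69-fold higher in Caco-2 cells, and was −0.53 after median-of-ratios scaling. Rows of 11 ASS1 pseudogenes summed to at most 1.63% of ASS1 in any library, so reads assigned to them could change little. ASL was between 110 and 160 TPM in Caco-2 cells (median 137) and between 91.1 and 127 TPM in HepG2 cells (median 104). Its difference was −0.41 (SE 0.05, adjusted p = 3.84e-07), and −0.18 (adjusted p = 0.00632) with that scaling. Only 1 Caco-2 library, replicate 3 of the co-cultured FFAs group, lay within the range of ASL in HepG2 cells.

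Of the arginases, ARG2 was the one clearly expressed in either line. ARG1, the arginase of the hepatic cycle, was listed at 0 in 8 of 11 Caco-2 libraries and reached 0.97 TPM in the highest, and it was between 0.36 and 2.26 TPM in HepG2 cells (median 0.88). Its difference between the lines was 0.82 (SE 0.15, adjusted p = 6.89e-05). ARG2 was between 11.5 and 22.1 TPM in Caco-2 cells (median 14.4) and between 18.04 and 55.7 TPM in HepG2 cells (median 27.3). The difference of ARG2 was 0.88 (SE 0.15, adjusted p = 2.36e-05), or 1.84-fold. Mean ARG2 in HepG2 cells was 30.6 TPM against 1.05 TPM for ARG1.

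GLUL carried most of the mRNA of the 9 genes. It made up between 69.2% and 78.8% of their summed TPM in Caco-2 libraries and between 76.2% and 84.7% in HepG2 libraries. By mean TPM it ranked 116 from the top among 31100 genes above 0 in Caco-2 cells (936 TPM) and 98 among 29942 in HepG2 cells (1051 TPM). The range was 723 to 1077 TPM in Caco-2 cells and 869 to 1411 TPM in HepG2 cells, with overlap. The difference between the lines was 0.16 (SE 0.07, adjusted p = 0.0333), and 0.39 (adjusted p = 4e-05) after median-of-ratios scaling. The call without scaling was lost (adjusted p between 0.0536 and 0.0802) without any 1 of 8 libraries, which were Caco-2 replicate 1 of the co-cultured control, the co-cultured FFAs and the mono-cultured FFAs groups, Caco-2 replicate 3 of the mono-cultured control, HepG2 replicate 1 of the co-cultured control, and HepG2 replicate 3 of the other 3 groups.

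Among 46 further genes of these pathways, 42 were expressed enough to be tested, and 19 were higher and 17 lower in HepG2 cells. Of all genes tested, 29.2% were called higher and 49.8% lower, so these counts alone say little about the pathways. Glutamine and glutamate genes were split, with 6 of 14 higher and 6 lower, and so were genes of arginine, ornithine and proline, with 4 of 9 higher and 5 lower. Among transporters 5 of the 9 tested were higher and 2 lower, and among 7 transcription factors 2 were higher and 3 lower. Of the 3 genes for bicarbonate supply and CPS1 modification, 2 were higher and 1 lower.

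The 6 smallest adjusted p of that list came from enzymes and a coactivator that differed severalfold. OAT, which interconverts ornithine and glutamate semialdehyde, had a median of 926 TPM in Caco-2 cells and 79.5 TPM in HepG2 cells (difference −3.60, SE 0.07, adjusted p = 1.99e-19). PRODH, proline dehydrogenase, had a median of 36.3 TPM in Caco-2 cells and 0.09 TPM in HepG2 cells (difference −4.99, SE 0.12). GLUD1, glutamate dehydrogenase, which releases ammonia from glutamate, had medians of 795 and 252 TPM (difference −1.66, SE 0.05). In the other direction, PYCR1, which makes proline, had medians of 207 and 569 TPM (difference 1.44, SE 0.05). CA5A, the mitochondrial carbonic anhydrase that supplies bicarbonate to CPS1, had medians of 2.53 and 49.4 TPM (difference 3.80, SE 0.15). PPARGC1A, a transcriptional coactivator induced by fasting in liver, had medians of 0.05 and 20.1 TPM (difference 4.25, SE 0.15).

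The second comparison was FFAs against control within each line. None of the genes passed the adjusted threshold in mono-culture, in co-culture, in their mean or in the difference between cultures, in either line. In Caco-2 cells 7 of the 9 genes could be tested, since OTC and ARG1 had no group mean of 1 TPM, and in HepG2 cells all 9. Almost no gene of the whole tables was called either, 0% in 7 of these 8 contrasts and 0.0199% (3 of 15081 genes) for co-cultured Caco-2 cells. Their difference between the lines was called for 0.0182% of genes, and for none of the 9. At an unadjusted p under 0.05 in the mean of both cultures, ASS1 alone was below it in Caco-2 cells, and ASL alone in HepG2 cells. Over all genes tested, the share below it in the mean of both cultures was 3.99% for Caco-2 cells and 3.49% for HepG2 cells. The median difference of the genes tested was 0.05 (Caco-2) and 0.08 (HepG2), beside 0.01 over all genes of either line.

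ASS1 in Caco-2 cells was higher in every FFAs-treated library than in every control library of the same culture. Mono-cultured controls were at 127, 112 and 119 TPM and FFAs-treated cells at 154, 127 and 132 TPM for replicates 1, 2 and 3. Co-cultured controls were at 112.31 and 112.30 TPM, and FFAs-treated cells at 149, 182 and 128 TPM. In mono-culture the groups nearly touched, with 126.7 TPM in the highest control and 127.0 TPM in the lowest treated library. The difference was 0.20 (SE 0.12) in mono-culture, 0.43 (SE 0.14) in co-culture and 0.32 (SE 0.09, 95% interval 0.12 to 0.52, adjusted p = 0.99) as their mean. Leaving out either co-cultured library with raised TF and SPP1 also gave 0.32 as that mean. Of the 7 genes tested, ASS1 was the only one without overlap in both cultures in the same direction, a pattern of 1.15% of all genes tested. In HepG2 cells the estimate for ASS1 was −0.09 (SE 0.13), and the difference between the lines, −0.41 (SE 0.17), had an adjusted p of 1.00.

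ASL in HepG2 cells was lower in every FFAs-treated library than in every control library of the same culture. Mono-cultured controls were at 105.5, 104.6 and 114.5 TPM and FFAs-treated cells at 103.0, 98.6 and 93.3 TPM. Co-cultured controls were at 127, 113 and 109 TPM and FFAs-treated cells at 101, 98.7 and 91.1 TPM. The difference was −0.14 (SE 0.09) in mono-culture, −0.26 (SE 0.09) in co-culture and −0.20 (SE 0.07, 95% interval −0.34 to −0.05, adjusted p = 1.00) as their mean. ASL was the only one of the 9 genes without overlap in both cultures in the same direction, against 0.358% of all genes tested. Its estimate in Caco-2 cells was −0.12 (SE 0.08), where mono-cultured libraries with FFAs (131 to 137 TPM) were all below the controls (148 to 160 TPM) and the co-cultured ones overlapped.

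NAGS in HepG2 cells had the largest FFAs estimate as a mean of both cultures, with wide error. Its mean was 11.6 ± 5.54 TPM in mono-cultured controls and 7.51 ± 2.99 TPM with FFAs, and 18.7 ± 2.61 and 13.9 ± 6.91 TPM in co-culture (SD, n = 3 each). The difference was −0.50 (SE 0.28, 95% interval −1.11 to 0.11), and treated and control libraries overlapped in both cultures. For the genes other than ASS1, ASL and NAGS, the FFAs estimates as means of both cultures were between −0.22 (ARG2) and 0.24 (CPS1, −0.07 without replicate 3 of the mono-cultured control) in Caco-2 cells, and between −0.13 (ARG2) and 0.14 (GLUL) in HepG2 cells. The sign for ARG2 in HepG2 cells turned without replicate 3 of either control group (0.04 in co-culture and 0.003 in mono-culture). The interval of OTC in HepG2 cells was from −0.81 to 1.01, so changes of that size cannot be told from none at this replication.

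**Figure D3:**
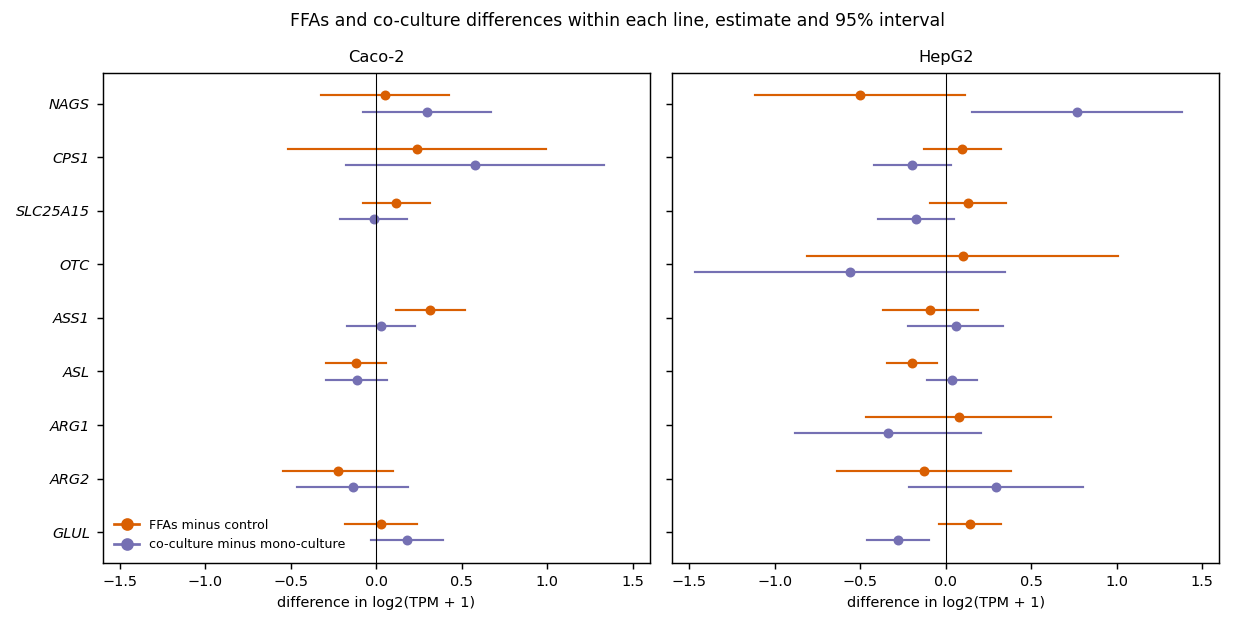
Differences in log2(TPM + 1) (x axis) with 95% intervals for FFAs minus control (mean of both cultures) and co-culture minus mono-culture (mean of both treatments), Caco-2 left and HepG2 right. OTC and ARG1 were not tested in Caco-2 cells, and no difference shown passed the adjusted threshold in this fit without a replicate block, with the intervals of NAGS and OTC in HepG2 cells and of CPS1 in Caco-2 cells among the widest.

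The third comparison was co-culture against mono-culture, which asks whether the presence of the other line changed these genes. None of the genes passed the adjusted threshold in any contrast of either line without a replicate block. With one, GLUL and NAGS passed it in HepG2 cells as the mean of both treatments, where 492 of 14255 genes were called. Without the block, the share called was 0.0561% (8 of 14255 genes) for HepG2 cells as the mean of both treatments. It was 0.0199% for Caco-2 controls and 0% in the other 4 contrasts. The difference of this effect between the lines was called for 0.533% of genes and for none of the 9 without the block. With the block it was called for 835 of 16495 genes, GLUL among them. At an unadjusted p under 0.05, GLUL and NAGS were below it in HepG2 cells as the mean of both treatments, where 12.5% of all genes were. No gene of the 9 was without overlap in both treatments in the same direction, against 2.67% (Caco-2) and 2.66% (HepG2) of the genes tested. The median difference of the genes tested was 0.03 in Caco-2 cells, equal to that of all genes, and −0.17 in HepG2 cells, beside −0.02 for all genes.

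GLUL had lower means in co-cultured than in mono-cultured HepG2 cells, a difference that passed the adjusted threshold with a replicate block and not without it. Mono-cultured controls were at 1015, 1087 and 1133 TPM and co-cultured controls at 952, 869 and 917 TPM, without overlap. With FFAs, mono-cultured cells were at 1154, 1116 and 1411 TPM and co-cultured cells at 906.4, 906.5 and 1145 TPM, where replicate 3 of the co-culture overlapped the mono-culture. Each co-cultured library was below the mono-cultured library of the same replicate number and treatment. The difference was −0.24 (SE 0.12) in controls, −0.32 (SE 0.12) with FFAs and −0.28 (SE 0.08, 95% interval −0.46 to −0.10, adjusted p = 0.212) as their mean. With the replicate number as a block the mean difference had an adjusted p of 0.0357 in limma, where 492 of 14255 genes were called. In Caco-2 cells the estimate for GLUL was 0.18 (SE 0.10, 95% interval −0.03 to 0.39). The difference between the lines, −0.46 (SE 0.13, 95% interval −0.73 to −0.19), had an adjusted p of 0.107. With the block it was −0.44 with an adjusted p of 0.0345 in limma, where 835 of 16495 genes were called instead of 88.

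NAGS in HepG2 cells was at a higher mean in co-culture in both treatments. The libraries of controls were at 13.4, 16.0 and 5.39 TPM in mono-culture and 21.0, 19.2 and 15.9 TPM in co-culture. Those with FFAs were at 7.39, 10.6 and 4.58 TPM in mono-culture and 10.3, 21.9 and 9.57 TPM in co-culture. Groups overlapped in both treatments, although each co-cultured library exceeded the mono-cultured one of its number. The difference was 0.77 (SE 0.28, 95% interval 0.16 to 1.38, adjusted p = 0.293), or 1.70-fold. With the replicate block its adjusted p in limma was 0.0371, where 492 of 14255 genes were called. In Caco-2 cells the estimate for NAGS was 0.30 (SE 0.17), and the difference between the lines, 0.47 (SE 0.35), had an adjusted p of 0.563.

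CPS1 in Caco-2 cells had the largest co-culture estimate of that line. It was at 10.8, 8.37 and 2.00 TPM in mono-cultured controls and 8.57 and 6.55 TPM in co-cultured controls. With FFAs it was at 5.57, 6.97 and 4.79 TPM in mono-culture and 15.6, 14.2 and 6.07 TPM in co-culture. The difference was 0.58 (SE 0.34, 95% interval −0.18 to 1.33, adjusted p = 0.591), with overlap in both treatments. TF and SPP1 were raised in 1 of the 2 co-cultured FFAs-treated libraries with high CPS1 (replicate 1) and not in the other (replicate 2), and without replicate 1 of the FFAs or of the control group the estimate was 0.46 and 0.49. It was 0.27 without replicate 3 of the mono-cultured control. OTC and ARG1 in HepG2 cells had lower means in co-culture, with estimates of −0.56 (SE 0.42) and −0.34 (SE 0.25) that did not pass the test.

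Criteria modelled on those of the study were also counted, a one-way analysis of variance over the 4 groups of a line in which a gene needs p under 0.05 before adjustment and some pair of group means that lie 0.26 or more apart in log2(TPM + 1). The study's methods name no pseudocount and speak of any 2 samples, read here as groups. Among Caco-2 cells 3.08% of 31100 genes met them and 0 of the 9 did. In HepG2 cells 3.56% of 29942 genes met them, with GLUL alone of the 9, whose largest difference between group means was 0.42. ASL took its place after median-of-ratios scaling, where 3.69% of all genes met the criteria. Leaving out 1 HepG2 library at a time gave between 3.10% and 4.61% of all genes. Without HepG2 replicate 1 of the co-cultured control, replicate 2 or 3 of the mono-cultured control or replicate 3 of the mono-cultured FFAs group, 0 of the 9 met the criteria. Without replicate 2 or 3 of the co-cultured control or replicate 1 of the mono-cultured FFAs group ASL met them and GLUL did not. Without replicate 1 or 2 of the co-cultured FFAs group ASL and GLUL did, 2 of 9, beside 3.92% and 3.38% of all genes. In Caco-2 cells ASS1 and NAGS met them without replicate 3 of the co-cultured FFAs group, beside 3.80% of all genes. Without replicate 1 of the co-cultured control that group holds 1 library, so no call is read from this setting. ARG1 was at 0.97 TPM in that library and at most 0.16 TPM in the other Caco-2 groups.

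Within HepG2 cells the libraries with the number 3 stood apart for several of the genes. OTC was at 0.23, 0.42, 0.25 and 0.19 TPM in replicate 3 of mono-cultured controls, mono-cultured FFAs, co-cultured controls and co-cultured FFAs, and between 1.01 and 4.33 TPM in the other 8 libraries, a 9.06-fold difference of means. ARG2 was higher in replicate 3 in each group, between 28.4 and 55.7 TPM against 18.04 to 28.2 TPM. NAGS was lowest in replicate 3 of each group (mean 8.86 TPM against 14.98 TPM). In the same 4 libraries SPP1 was between 764 and 1188 TPM, against 413 to 862 TPM in the other 8, and between 21588 and 22416 genes were above 0 TPM, against 19259 to 20873. Their part in the values of OTC, ARG2 and NAGS was not tested, and no label says what the number 3 stands for.

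**Figure D4:**
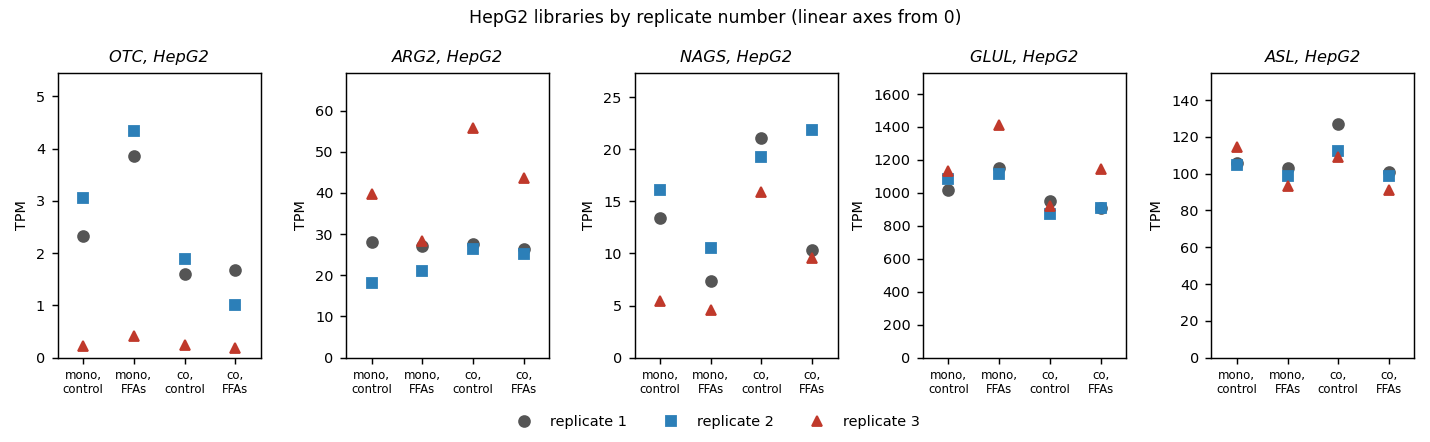
TPM (y axis, linear from 0) of 5 genes in HepG2 cells by group (x axis), with 1 symbol per library and colour and shape for the replicate number. Replicate 3 is lowest for OTC (at most 0.42 TPM) and highest for ARG2 (at least 28.4 TPM) in every group. Every ASL value with FFAs is below the controls of its culture, a difference that did not pass the adjusted threshold.

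A repeat of the tests without the libraries numbered 3 was added after these values had been seen. The difference of OTC between the lines was then 1.55 (adjusted p = 3.73e-08), that of ARG2 0.69 (adjusted p = 0.000301), and that of NAGS 2.59 (adjusted p = 5.56e-09). GLUL fell out of the calls (0.07, adjusted p = 0.305), and CPS1 was at 0.10 (adjusted p = 0.354). In HepG2 cells the co-culture estimates as means of both treatments were −0.78 for OTC (adjusted p = 0.138), −0.27 for GLUL (adjusted p = 0.142), 0.57 for NAGS (adjusted p = 0.314) and 0.18 for ARG2, the last from 0.30 (SE 0.23) with all libraries. The FFAs estimate of ASL, as the mean of both cultures, was −0.16 (adjusted p = 0.587). Of the Caco-2 libraries with the number 3, CPS1 was at 2.00, 4.79 and 6.07 TPM, the lowest of its group each time.

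The genes with the most similar pattern to each of the better expressed members were also listed, by Pearson correlation of log2(TPM + 1) over the libraries of the line with the higher mean. They are a description over libraries that share groups and replicate numbers. For NAGS in HepG2 cells (12 libraries, 10234 genes) they were MFSD12 (r = 0.954), FJX1 (0.951) and SESN2 (0.944). For ARG2 they were CD63 (0.972), YKT6 (0.959) and YWHAB (0.944), and for GLUL SSC4D (0.958), KLB (0.946) and CLU (0.941). For CPS1 and SLC25A15 in HepG2 cells the nearest genes were BCAS4 (0.897) and CCDC163 (0.943). For ASS1 in Caco-2 cells (11 libraries, 10837 genes) the nearest was LMAN1 (0.923), and for ASL GOLGA3 (0.889).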

How the data were processed

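The mRNA-seq of 23 libraries from the established lines Caco-2 and HepG2 was used. cDNA was amplified from total RNA with SMART-Seq v4 chemistry and sequenced on a NovaSeq instrument. The authors deposited TPM per gene, 1 table per library with 60564 genes, after removing reads of rRNA, tRNA and mitochondrial genomes (Bowtie2 2.1.0), mapping to GRCh38 (STAR 2.7.1a, Ensembl annotation) and running RSEM 1.3.0. TPM keep no depth, and mitochondrially encoded genes are therefore at 0.

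Groups and replicate numbers came from the labels. Values were analysed as log2(TPM + 1), for genes whose mean reached 1 TPM in any group, with limma 3.58.1 (eBayes with trend, R 4.3.3) and Benjamini-Hochberg adjustment at 0.05. All 4 groups of a line entered one fit, and contrasts between lines used all 8 groups. The study's count tool could not be used on TPM. Two-sided tests were used throughout. Alternatives were a pseudocount of 0.1, no filter or a filter at 5 TPM, median-of-ratios scaling, quantile normalization, no trend, a replicate block, a fit of the 2 compared groups alone, a moderated F test for the analysis of variance, and leaving out each library. The script was tested on simulated data.

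The 9 genes are always named, and the 46 pathway genes by counts per role and by up to 6 smallest adjusted p in a comparison. Similar genes are the top 3 by r for members with a median of at least 5 TPM. The genes and lists were chosen with earlier results of these data known. Gene bounds are from GENCODE v44 and promoter windows from RefSeq (all 9 genes matched). Python 3.11.15 with pandas 2.3.3 and matplotlib 3.10.9 was used.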

Additional observations from a re-analysis of the deposited data

How the results depend on the processing

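Correlations between libraries were taken on each gene's deviation from its group mean in log2(TPM + 1), not on expression levels. Deviations within a group sum to 0, so a positive r with one library goes with lower r with the others of its group. On these deviations, same-numbered libraries of different groups had r from 0.03 to 0.60 in HepG2 cells and from -0.09 to 0.31 in Caco-2 cells. By this measure 10 of 12 HepG2 and 5 of 11 Caco-2 libraries correlated best with one of their own number. In HepG2 cells 15 of 18 same-numbered pairs were over 0.1, with all 6 pairs of co-cultured and mono-cultured libraries of one treatment among them (0.109 to 0.601), and in Caco-2 cells 7 of 15. The labels do not say what the numbers mark. With the number as a replicate block, all 9 genes were called between the lines, as were 13466 of the 16495 genes tested. In HepG2 cells 2 were called for co-culture as the mean of both treatments (GLUL −0.28, adjusted p = 0.0357, and NAGS 0.77, adjusted p = 0.0371), with 492 of all genes instead of 8. For the difference of the co-culture effect between the lines 1 was called (GLUL −0.44, adjusted p = 0.0345), with 835 of all genes instead of 88. The analysis of variance criteria were met in HepG2 cells by 3 of the 9 (GLUL, NAGS, OTC) and by 5.55% of all genes, instead of 3.56%. With limma's moderated F test 1 of the 9 met these criteria in Caco-2 cells (ASS1), beside 3.75% of all genes. With libraries left out, 2.48% to 5.52% of all genes met them in Caco-2 cells and 3.10% to 5.57% in HepG2 cells. Over leaving out libraries, the 9 genes gave between 0 and 2 by these criteria in each line, and 7 to 9 between the lines, where 12670 to 13025 of all genes were called.

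Among the differences recomputed for the 9 genes, leaving out libraries turned 3 uncalled FFAs estimates (means of both cultures), CPS1 in Caco-2 cells (−0.065 to 0.43, negative without replicate 3 of the mono-cultured control), ARG2 in HepG2 cells (−0.27 to 0.041, and 0.011 without the libraries numbered 3) and OTC in HepG2 cells (−0.16 to 0.41). No other sign turned. The OTC estimate, 0.10, was negative without replicate 3 of either control group, replicate 1 of the co-cultured FFAs group, or replicate 1 or 2 of the mono-cultured FFAs group. FFAs gave 0 calls of the 9 genes under every alternative. The call of GLUL between the lines was also lost with no filter (adjusted p = 0.0665), with quantile normalization (0.131) and without the trend (0.0519), and CPS1 was also called with quantile normalization (0.0019). The cause was not tested. Counts of all genes called within lines, and in the FFAs difference between lines, were small and moved between 0 and 24 under the alternatives other than the block. The block gave 60 instead of 0 genes for co-culture of Caco-2 cells as the mean of both treatments, 5 instead of 3 in their controls and 6 instead of 0 in HepG2 controls. The co-culture difference between lines gave 33 to 328 genes over leaving out libraries.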
